A study of Mus musculus with 7 samples.

Results

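The 10 circadian clock genes Clock, Arntl, Per2, Per3, Cry1, Cry2, Nr1d1, Nr1d2, Dbp and Rora were taken by symbol from a table of 24062 gene symbols, and all 10 were counted in all 7 samples. The samples came from female ERα-ZsGreen mice on a C57BL/6J background (Esr1-ZsGreen in the labels), aged 10 to 14 weeks, in which a green fluorescent reporter marks cells that express estrogen receptor alpha. ZsGreen+ neurons of the medial preoptic area (MPA) were recorded in brain slices while the bath was warmed, and the contents of 2 neurons with a like response were drawn into the pipette and pooled as 1 sample. Neurons whose firing rate rose past the study's cutoff gave 4 temperature-responsive samples, and the others gave 3 non-responsive samples. The labels give the same warming for all samples, and the groups were set by the recorded response. Time at the higher temperature and time to aspiration are not given per sample. A difference in exposure therefore cannot be told apart from the response. Mice lived under a light cycle with 12 h of light. The labels and methods used here give no clock time for slice preparation or for aspiration, and time of day was not tested.

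The mammalian clock is a feedback loop of transcription. CLOCK and BMAL1 (encoded by Arntl) pair on E-box sequences and drive the Per and Cry genes, whose proteins return to the nucleus and repress that pair. CLOCK and BMAL1 also drive Nr1d1 and Nr1d2, which encode the repressors REV-ERBα and REV-ERBβ, and Dbp, which encodes a PAR bZIP factor that binds D-boxes in output genes. REV-ERB proteins compete with the activator RORα (Rora) on ROR elements, such as those of Arntl, and so set Arntl in antiphase to Per2 and Dbp in rhythmic tissues. The suprachiasmatic nucleus, the master pacemaker, lies close to the preoptic area, and most other brain cells carry the same loop.

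Totals lay between 1914497 and 2814360 counts in temperature-responsive and between 3309361 and 5125280 in non-responsive samples. Genes detected (1 or more counts) numbered between 19852 and 21177 in the former and between 17818 and 19820 in the latter, so depth and gene detection moved with the group and cannot be told apart from it. Esr1 itself was low, at 10 to 27 counts per sample. Although the methods state female mice, the Y-linked gene Ddx3y had 684 to 1150 counts and the inactive X transcript Xist 2 to 14 counts in each sample. These counts do not match the stated sex, and the sex of the source mice was not resolved here. Levels below are library-scaled counts (CPM) after TMM scaling, which corrects totals for the makeup of each library. A floor of 3 counts per library lay between 0.564 and 1.62 CPM and covers counting error only. Counts of the 10 clock genes ran from 28 (Dbp) to 1002 (Rora), so all were above that floor. In pooled neurons, fewer cells that express a gene and less RNA per cell cannot be told apart.

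Between temperature-responsive and non-responsive neurons, Nr1d2 rose, Nr1d1 and Dbp fell, and the other 7 clock genes did not pass the test. Genes were called by the quasi-likelihood test of edgeR, with p-values adjusted by Benjamini-Hochberg over 14407 genes and a threshold of 0.05. Of the 10 clock genes 3 passed, against 30.0% of all genes tested, so their share matched the background and is not a result about the clock genes. The background was 15.1% for higher genes and 14.9% for lower genes. The median log2 fold change was 0.11 over the 10 clock genes and 0.007 over all genes tested. When each sample's number of detected genes entered as a covariate, none of the 10 passed by edgeR, beside 0.00694% of all genes (1 gene). In that fit 2 of the 10 and 2062 genes in all had an unadjusted p under 0.05.

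The 3 genes that passed are shown first by their promoters, together with that of Per3, whose D-box letters are those that DBP binds. The sequences are RefSeq windows on GRCm38.p6 (mm10), from 250 bases before to 50 bases after the annotated start, printed 5′ to 3′ on the strand of the gene. Capitals mark matches to the E-box CACGTG, the D-box TTATGTAA or TTATGCAA, or the ROR element TAGGTCA or TGGGTCA, searched on both strands.
Nr1d1, chr11:98775328-98775627, minus strand: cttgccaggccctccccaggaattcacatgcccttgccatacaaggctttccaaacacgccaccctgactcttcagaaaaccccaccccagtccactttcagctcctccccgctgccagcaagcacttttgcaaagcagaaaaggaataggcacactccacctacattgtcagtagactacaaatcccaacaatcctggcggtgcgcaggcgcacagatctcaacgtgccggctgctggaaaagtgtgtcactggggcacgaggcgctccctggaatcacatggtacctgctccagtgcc
Nr1d2, chr14:18239057-18239356, minus strand: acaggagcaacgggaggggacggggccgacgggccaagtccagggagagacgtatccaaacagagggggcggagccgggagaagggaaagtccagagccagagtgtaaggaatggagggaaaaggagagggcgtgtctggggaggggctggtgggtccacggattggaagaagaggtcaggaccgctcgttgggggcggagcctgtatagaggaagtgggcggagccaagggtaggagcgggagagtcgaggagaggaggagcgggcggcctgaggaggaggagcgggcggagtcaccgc
Dbp, chr7:45704997-45705296, plus strand: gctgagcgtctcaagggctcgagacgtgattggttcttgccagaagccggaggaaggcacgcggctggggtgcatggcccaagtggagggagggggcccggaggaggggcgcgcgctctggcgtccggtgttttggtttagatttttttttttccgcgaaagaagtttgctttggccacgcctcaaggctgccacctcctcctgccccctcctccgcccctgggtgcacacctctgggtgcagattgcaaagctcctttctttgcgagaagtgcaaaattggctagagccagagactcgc
Per3, chr4:151044616-151044915, minus strand: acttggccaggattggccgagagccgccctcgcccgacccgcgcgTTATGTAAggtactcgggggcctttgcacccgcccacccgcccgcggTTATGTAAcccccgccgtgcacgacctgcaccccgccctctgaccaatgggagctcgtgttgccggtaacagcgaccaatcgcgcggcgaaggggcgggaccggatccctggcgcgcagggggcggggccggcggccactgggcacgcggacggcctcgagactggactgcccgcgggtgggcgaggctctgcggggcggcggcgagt

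Per3 held the D-box letters 2 times, at 205 and 158 bases before the start, whereas 1.66% of the 32851 promoter windows held them. The windows of Nr1d1, Nr1d2 and Dbp held none of the 3 motifs, which says only that these letters are not in these 300 bases. Windows were found for 9 of the 10 clock genes (12 windows), Per2 being the exception. Beyond Per3, Cry1 held an E-box 60 bases before its start (7.15% of all windows hold it) and 1 of the windows of Arntl held the ROR element letters 30 bases after its start (6.45% of all windows). These matches are descriptions of the sequence and not sites shown to be bound.

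The paralogs Nr1d1 and Nr1d2, both REV-ERB repressors, differed in opposite directions. Nr1d1 (mm10 chromosome 11, 98767932 to 98775333) had 91.0, 75.4, 96.6 and 89.2 CPM in temperature-responsive replicates 1 to 4 and 138, 142 and 160.3 CPM in non-responsive replicates 1 to 3. Each temperature-responsive sample was below each non-responsive sample. The means were 88.1 ± 9.01 CPM (SD, n = 4) and 147 ± 11.9 CPM (SD, n = 3), a level 1.66-fold lower in temperature-responsive neurons. Its log2 fold change was -0.73 (SE 0.106, adjusted p = 9.73e-05, edgeR).

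Nr1d2 (chromosome 14, 18204054 to 18239127) had 299, 237, 214.5 and 199.6 CPM in temperature-responsive replicates 1 to 4, against 162, 143 and 129 CPM in non-responsive replicates 1 to 3. The groups did not overlap here either, and temperature-responsive replicate 1 was the highest of the 7 samples. The means were 237.5 ± 43.8 CPM (SD, n = 4) and 145 ± 16.6 CPM (SD, n = 3), a level 1.64-fold higher in temperature-responsive neurons. The log2 fold change was 0.72 (SE 0.121, adjusted p = 0.000303, edgeR).

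Set against each other within a sample, Nr1d2 had 3.29, 3.14, 2.22 and 2.24 times the counts of Nr1d1 in the temperature-responsive samples. In the non-responsive samples the ratio was 1.18, 1.00 and 0.805. The ratio needs no scaling for depth. Its lowest temperature-responsive value lay above its highest non-responsive one. That had to follow, since neither gene overlapped between the groups and they differed in opposite directions. The ratio uses the same counts as the tests of the 2 genes, was not among the planned measures and adds no support to them. It is also not corrected for GC content, which is 41.8% for Nr1d2 and 56.8% for Nr1d1.

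In the annotation, 8.55% of the exonic bases of Nr1d1 are shared with exons of Thra, a thyroid hormone receptor gene on the opposite strand. The strand setting of the counting is not given in the sources used here, so reads on those bases cannot be assigned. Thra also fell, from 107 ± 22.4 to 57.4 ± 15.7 CPM (SD), with a log2 fold change of -0.89 (SE 0.174, adjusted p = 0.00141, edgeR), and its part in the Nr1d1 value was not tested. No stretch of 50 bases of Nr1d1 was shared with Nr1d2, so reads of that length do not cross between the paralogs. Of the 50-base stretches of the longest Nr1d2 transcript, 6.0% also occurred in the gene model AC170187.1.

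**Figure D1:**
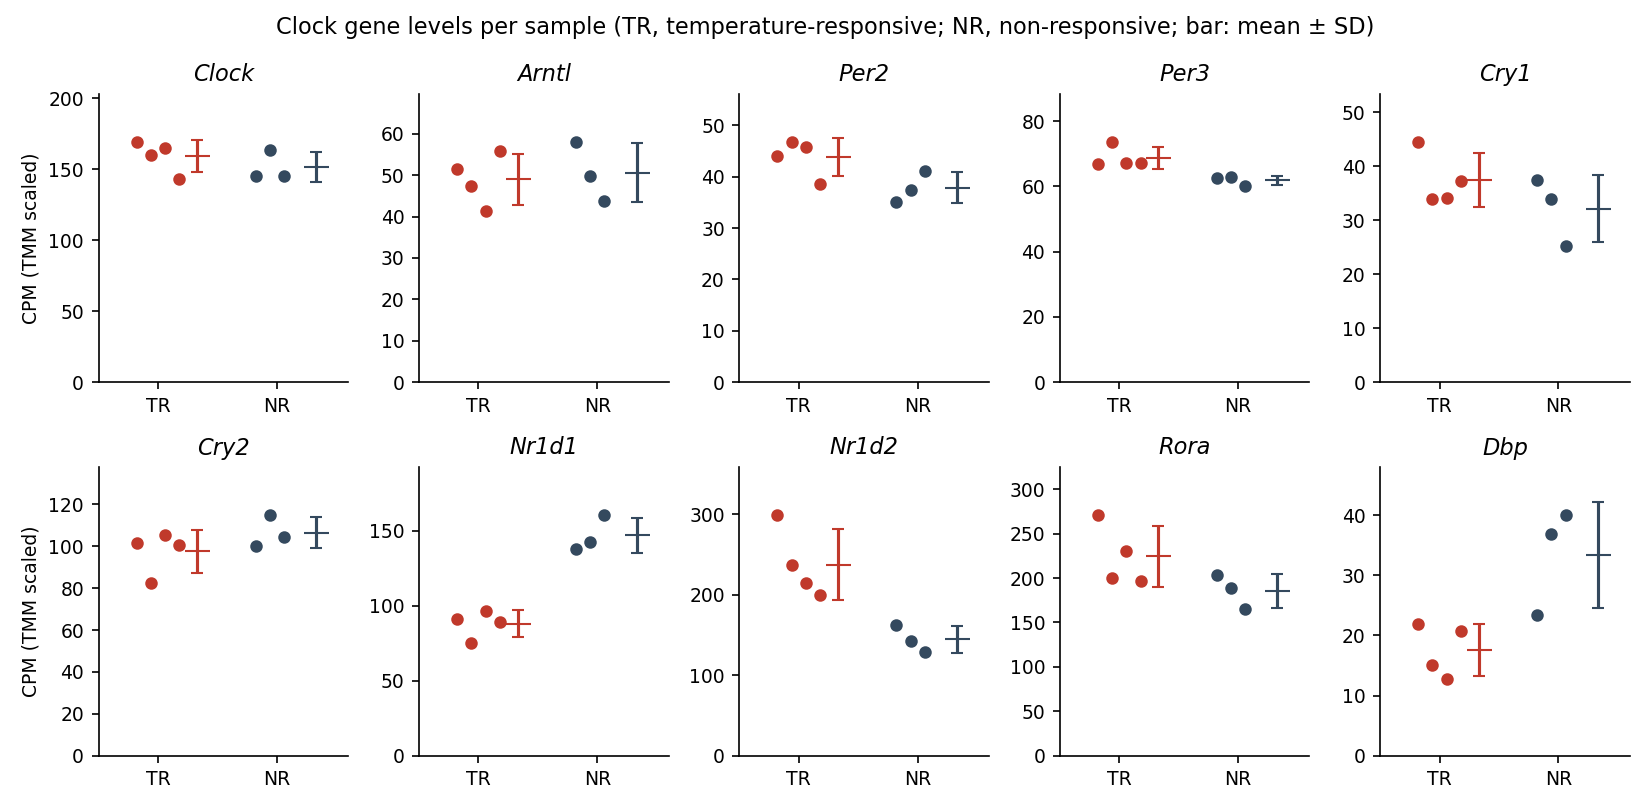
Level of each clock gene in CPM per sample (y axis, starting at 0) in the 4 temperature-responsive (TR) and 3 non-responsive (NR) samples; each point is a sample, and the bar beside the points is the mean ± SD. Nr1d1 and Dbp are lower and Nr1d2 is higher in every TR sample than in every NR sample. Per3 is also higher in every TR sample but did not pass the test, while Clock, Arntl, Per2, Cry1, Cry2 and Rora overlap.

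Dbp, the D-box activator of clock output, had the lowest CPM of the clock genes in the temperature-responsive samples and the largest fall. In the non-responsive samples Cry1 had a lower mean than Dbp. The gene occupies positions 45705088 to 45710203 of chromosome 7 (mm10). Levels were 21.8, 15.1, 12.7 and 20.7 CPM in temperature-responsive replicates 1 to 4, from 47, 28, 35 and 59 counts, and 23.4, 36.9 and 40.0 CPM in non-responsive replicates 1 to 3, from 78, 196 and 200 counts. The groups did not overlap, but non-responsive replicate 1 was close to the highest temperature-responsive sample. The means were 17.6 ± 4.40 CPM (SD, n = 4) and 33.4 ± 8.85 CPM (SD, n = 3), a level 1.92-fold lower in temperature-responsive neurons. The log2 fold change was -0.94 (SE 0.214, adjusted p = 0.00231, edgeR). Exons of Sphk2, a sphingosine kinase gene on the opposite strand, cover 18% of the exonic bases of Dbp. Of the 50-base stretches of the longest Dbp transcript, 27.5% also occurred in Sphk2. Reads on the shared bases cannot be assigned. Sphk2 had a log2 fold change of -0.29 (SE 0.202, adjusted p = 0.282, edgeR), and its part in the Dbp value was not tested.

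The relatives of Dbp in the PAR bZIP family, Hlf and Tef, bind the same D-box, and Nfil3 encodes a repressor on it. Hlf rose, with 125 to 141 CPM in temperature-responsive and 94.9 to 103 CPM in non-responsive samples and a log2 fold change of 0.38 (SE 0.0997, adjusted p = 0.00635, edgeR). Tef fell, with 162 to 173 CPM against 187 to 215 CPM and a log2 fold change of -0.27 (SE 0.0927, adjusted p = 0.0299, edgeR). Nfil3 fell as well, with 16.5 to 20.7 CPM against 23.7 to 28.8 CPM and a log2 fold change of -0.54 (SE 0.189, adjusted p = 0.0338, edgeR). So the D-box factors that fell include activators and the repressor, and Hlf, an activator, rose. Hlf counts were 6.07 to 10.1 times those of Dbp in temperature-responsive samples and 2.37 to 4.41 times in non-responsive samples. This separation had to follow, since neither gene overlapped between the groups and they differed in opposite directions. With an offset for GC content, Hlf, Tef and Nfil3 did not pass, with log2 fold changes of 0.23, -0.25 and -0.49 (adjusted p = 0.0936, 0.0527 and 0.0588, edgeR).

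The activators Clock and Arntl did not pass the test. Clock (chromosome 5, 76209868 to 76304792) had 169.5, 159.9, 165 and 143 CPM in temperature-responsive replicates 1 to 4 and 146, 164 and 145 CPM in non-responsive replicates 1 to 3. These ranges overlapped, with a log2 fold change of 0.07 (SE 0.0974, adjusted p = 0.619, edgeR). Arntl (chromosome 7, 113207465 to 113314126) had 51.6, 47.4, 41.4 and 55.9 CPM, against 58.1, 49.9 and 43.8 CPM. The highest and the lowest Arntl samples were in different groups, and the log2 fold change was -0.04 (SE 0.146, adjusted p = 0.875, edgeR). The sign of both is not stable, since Clock was -0.18 with the GC content offset and Arntl was 0.03 with upper quartile scaling.

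The repressors of the main loop, Per2, Per3, Cry1 and Cry2, did not pass either. Per3 (chromosome 4, 151003652 to 151044665) had 66.9, 73.8, 67.2 and 67.1 CPM in temperature-responsive replicates 1 to 4 and 62.6, 62.8 and 60.2 CPM in non-responsive replicates 1 to 3. It was the fourth clock gene whose groups did not overlap, yet its log2 fold change of 0.15 (SE 0.119) had an adjusted p of 0.365 in edgeR's fit. Groups did not overlap for 4 of the 10 clock genes, 2 higher and 2 lower, against 35.4% of all genes tested (17.2% higher, 18.2% lower). Per2 (chromosome 1, 91415982 to 91459324) had 44.1, 46.8, 45.7 and 38.6 CPM, against 35.0, 37.4 and 41.0 CPM. Only temperature-responsive replicate 4 reached into the non-responsive range, and the log2 fold change was 0.20 (SE 0.145, adjusted p = 0.304, edgeR).

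Cry1 (chromosome 10, 85131700 to 85185064) had 44.6, 33.9, 34.1 and 37.2 CPM in temperature-responsive and 37.4, 33.9 and 25.2 CPM in non-responsive samples. Its highest sample was temperature-responsive replicate 1 and its lowest non-responsive replicate 3, and the other samples overlapped (log2 fold change 0.23, SE 0.169, adjusted p = 0.326, edgeR). Cry2 (chromosome 2, 92403646 to 92434043) had 102, 82.4, 106 and 100.5 CPM, against 100.3, 115 and 104.5 CPM. Temperature-responsive replicate 2 was the lowest sample for Cry2, and the log2 fold change was -0.12 (SE 0.109, adjusted p = 0.410, edgeR). Opposite-strand exons of D930015M05Rik, at 0 to 9 counts per sample, cover 4.67% of the exonic bases of Cry2.

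Rora, the activator on ROR elements, lies on chromosome 9 from 68653786 to 69388246 and had 271, 200.3, 231 and 196 CPM in temperature-responsive replicates 1 to 4, against 203, 188.5 and 165 CPM in non-responsive replicates 1 to 3. Of the temperature-responsive samples, replicates 2 and 4 were below non-responsive replicate 1. Its log2 fold change of 0.28 (SE 0.111) lay just outside the threshold (adjusted p = 0.0600, edgeR). Rora passed without temperature-responsive replicate 4 (adjusted p = 0.0307) or non-responsive replicate 1 (adjusted p = 0.0266). It did not pass with any other sample left out. The smallest value was 0.17 (adjusted p = 0.213, edgeR), without temperature-responsive replicate 1, its highest sample. With the GC content offset the difference was 0.03 (adjusted p = 0.888, edgeR).

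Divided by the merged exon length of each gene in kilobases, the levels of the clock genes could be ordered. In non-responsive samples Nr1d1 was the highest, at 47.7 ± 3.88 CPM per kilobase (SD, n = 3), followed by Nr1d2 at 26.7 ± 3.06, Cry2 at 16.9 ± 1.19 and Rora at 14.2 ± 1.49. The ranges of these neighbours did not overlap. Dbp (11.2 ± 2.96), Clock (11 ± 0.774), Cry1 (9.63 ± 1.88), Arntl (6.73 ± 0.953), Per2 (6.46 ± 0.514) and Per3 (6.44 ± 0.149) followed, and each overlapped the next in that order. In temperature-responsive samples the leading pair changed places, with Nr1d2 at 43.9 ± 8.10 CPM per kilobase (SD, n = 4) above Nr1d1 at 28.6 ± 2.93, again without overlap. Dbp was last there, at 5.88 ± 1.47 CPM per kilobase, and its range overlapped that of Arntl, the next above it. The lengths come from all annotated isoforms, and the isoforms used in these neurons were not resolved.

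The wider clock was followed in 22 further genes chosen by textbook membership: paralogs of the clock genes, D-box factors, repressors, kinases and ubiquitin ligases. Of these 22, all tested, 3 rose and 4 fell, against the background of 30.0%, with a median log2 fold change of 0.08. Btrc, a ligase subunit that acts on PER proteins, fell from 156 ± 12.2 to 111 ± 12 CPM (log2 fold change -0.50, SE 0.105, adjusted p = 0.00125, edgeR). Its paralog Fbxw11 did not pass (0.08 on the log2 scale, adjusted p = 0.561, edgeR). Btrc also passed with the GC content offset, at -0.76 (adjusted p = 5.96e-05, edgeR).

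Bhlhe41, a repressor of E-box genes, rose (log2 fold change 0.34, adjusted p = 0.0233, edgeR), and its paralog Bhlhe40 did not pass (0.22 on the log2 scale, adjusted p = 0.0961). Csnk1e, a kinase that phosphorylates PER proteins, fell (log2 fold change -0.29, adjusted p = 0.0348, edgeR), and Csnk1d had -0.32 (adjusted p = 0.0533). Per1, the PER gene that is also induced by neuronal activity, had 67.3 to 91.1 CPM in temperature-responsive and 65.0 to 81.1 CPM in non-responsive samples, with a log2 fold change of 0.09 (SE 0.129, adjusted p = 0.644, edgeR). With 1 sample left out, 3 of the 22 passed without non-responsive replicate 3, and 4 without non-responsive replicate 2, temperature-responsive replicate 2 or temperature-responsive replicate 4. Over all genes tested, the shares that passed in those fits were 18.5%, 21.2%, 21% and 27.4%, in the same order. With the GC content offset 2 of the 22 passed, against 24.7% of all genes.

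**Figure D2:**
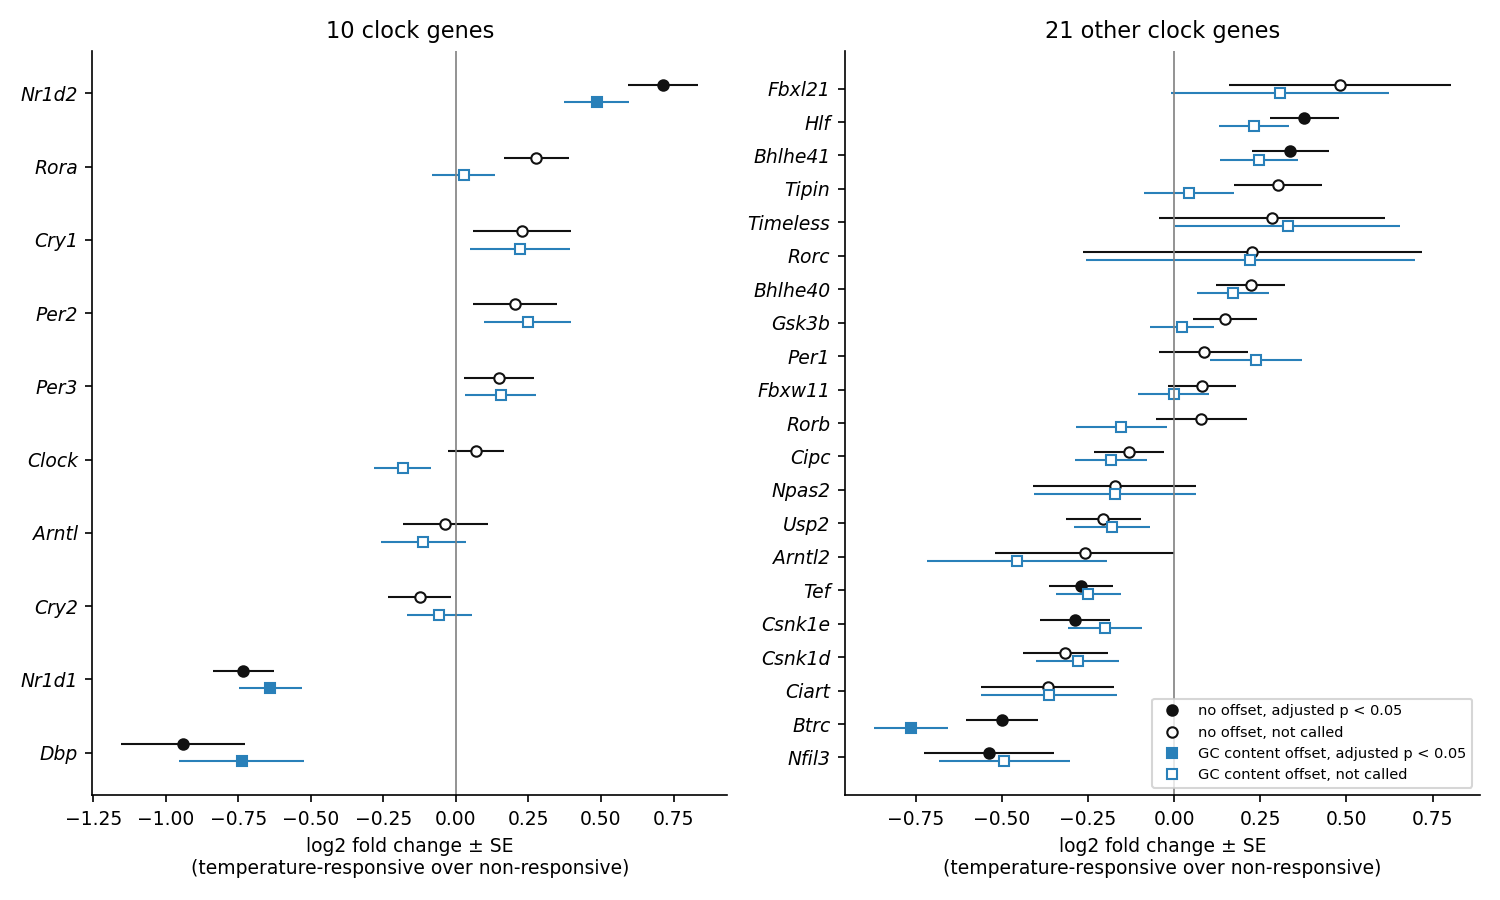
Log2 fold change ± SE (x axis) of the 10 clock genes and 21 of the further clock genes, without an offset (black circles) and with the GC content offset (blue squares); filled symbols passed an adjusted p of 0.05 and open symbols did not. Nr1d2, Nr1d1 and Dbp stay filled in both fits, as does Btrc, while Rora moves from 0.28 to 0.03.

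Whether the clock genes of opposite phase moved apart was described by a difference of means. For each sample, the mean log2 CPM of Per2, Per3, Nr1d1, Nr1d2 and Dbp, which peak together in rhythmic tissues, was taken from that of Arntl, Clock and Cry1, which peak later or opposite to them. This difference was 0.05, 0.03, 0.02 and 0.09 in temperature-responsive replicates 1 to 4 and 0.07, -0.12 and -0.42 in non-responsive replicates 1 to 3. The group means were 0.05 ± 0.032 (SD, n = 4) and -0.15 ± 0.25 (SD, n = 3), which are 0.20 apart. Non-responsive replicate 1 lay within the temperature-responsive range, and the others were below it. Without non-responsive replicate 3 the difference was 0.07, and with the GC content offset it was 0.06.

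The genes within the second arm did not move together. Nr1d1 and Dbp fell, Nr1d2 rose, and Per2 and Per3 did not pass the test, so their mean differed by only -0.12 between the groups (6.02 ± 0.097 and 6.13 ± 0.085, SD). The mean of Arntl, Clock and Cry1 differed by 0.08 (6.06 ± 0.11 and 5.98 ± 0.17, SD). With the arms drawn by role, Clock and Arntl less Per2, Per3, Cry1 and Cry2, the value was 0.52 to 0.68 for temperature-responsive samples and 0.65 to 0.77 for non-responsive ones, a difference of -0.10 with the opposite sign. Reduced to Arntl and Dbp, the difference was 0.86, and Arntl had 2.36 to 3.26 times the counts of Dbp in temperature-responsive samples, against 2.49, 1.35 and 1.09 times in non-responsive replicates 1 to 3. That ratio overlapped between the groups through non-responsive replicate 1. Direction and size thus depended on which genes stood for each arm, and no test was made on these means.

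**Figure D3:**
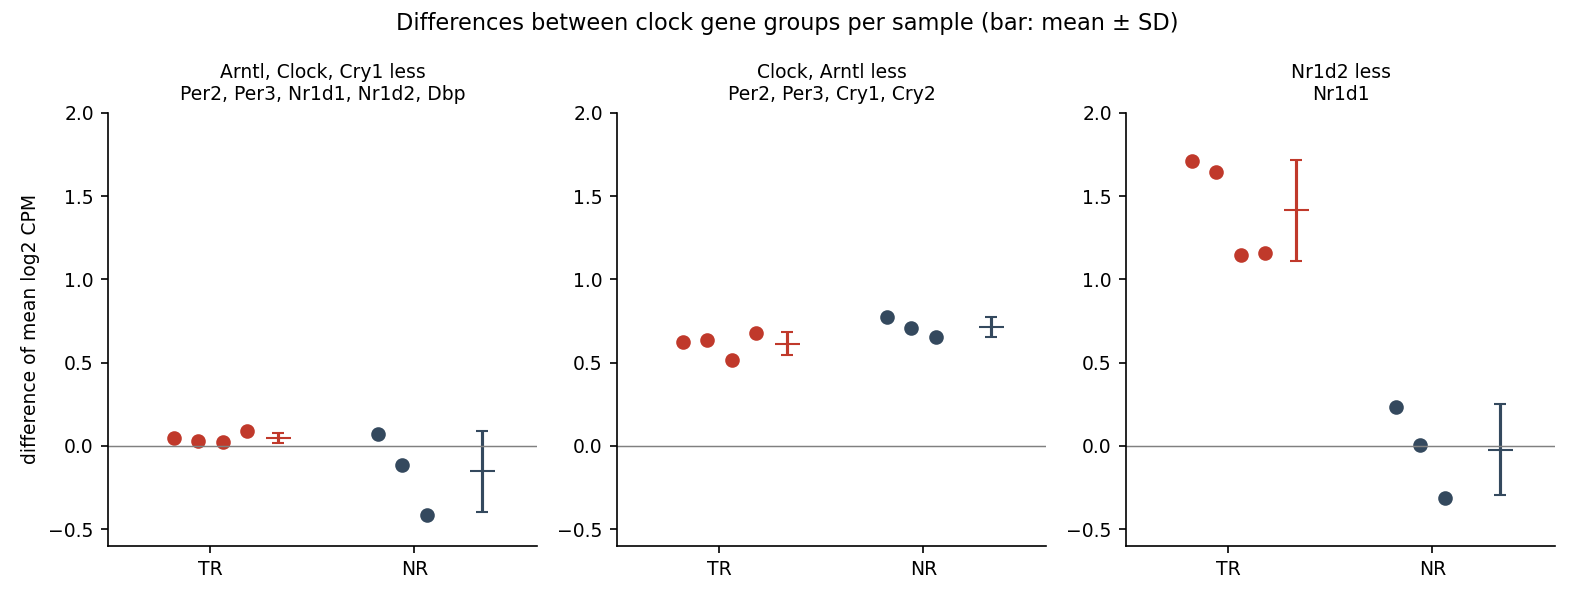
Differences of mean log2 CPM per sample (y axis) between groups of clock genes, in 4 temperature-responsive (TR) and 3 non-responsive (NR) samples; points are samples and bars are mean ± SD. In the left and middle panels the groups overlap. In the right panel Nr1d2 less Nr1d1 is at least 1.15 in TR and at most 0.23 in NR samples. That separation had to follow, since Nr1d2 is higher and Nr1d1 lower in every TR sample than in every NR sample. The pair was not a planned measure.

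Base composition moved with these differences. Across the genes tested that had a GC value (95.4%), the median log2 fold change was 0.32 in the lowest of 10 equal bins by GC content and -0.25 in the highest, and Spearman's rho across genes was -0.342. Among the 10 clock genes rho was -0.733, a description over 10 genes measured in the same libraries. Rora (40.9% GC in its longest transcript), Clock (40.9%) and Nr1d2 (41.8%) were the lowest in GC, and Nr1d1 (56.8%) and Dbp (61.6%) the highest. With an offset fitted to GC content in each sample, the log2 fold change of Nr1d2 was 0.48 (adjusted p = 0.00332), that of Nr1d1 -0.64 (adjusted p = 0.000273) and that of Dbp -0.74 (adjusted p = 0.0139, edgeR for all). All 3 still passed, beside 24.7% of all genes tested, and rho among the clock genes was then -0.382. Per2 (54.3% GC) and Per3 (52.4%) had 0.25 and 0.15 with the offset, near their values without it.

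**Figure D4:**
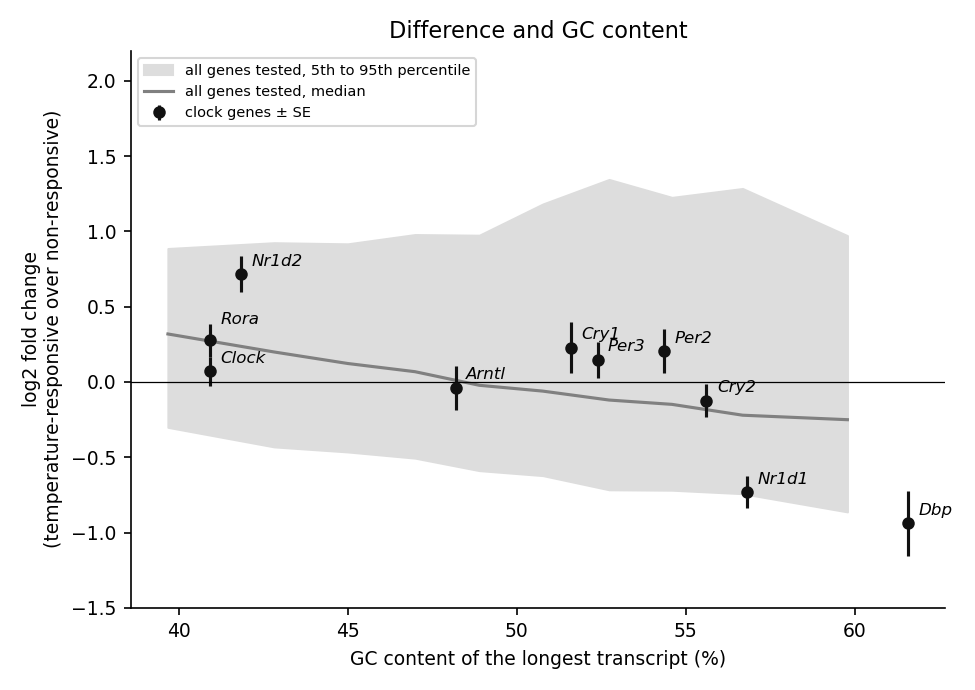
Log2 fold change (y axis) against the GC content of the longest transcript in percent (x axis); black points are the 10 clock genes ± SE, the grey line is the median and the grey band the 5th to 95th percentile of all genes tested, in 10 equal bins by GC content. The median falls from 0.32 to -0.25 with rising GC content. Nr1d2 lies above it and Nr1d1 below it, both inside the band, Nr1d1 close to its lower edge. Dbp lies lower still, to the right of the last bin's median, where no band is drawn.

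How alike the clock genes were within groups was described by the deviations of log2 CPM from the group means over the 7 samples. Of the 45 pairs, 24 had a positive Pearson's r, with a median of 0.073. The highest were Nr1d2 with Rora (r = 0.845), Cry1 with Rora (0.784) and Cry1 with Nr1d2 (0.752), in each of which temperature-responsive replicate 1 was the highest sample for both genes. The lowest were Per3 with Nr1d1 (-0.933), Arntl with Per2 (-0.860) and Per3 with Cry2 (-0.759). These values rest on 7 samples with 2 group means removed and share library depth and composition.

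Transcripts of other cells were present in the same samples, and some moved with the group. The summed level of 5 neuron markers lay between 2447 and 2810 CPM in temperature-responsive and between 2247 and 2588 CPM in non-responsive samples, with each of the 5 counted in every sample (1 higher, 2 lower by edgeR, against 15.1% and 14.9% of all genes). The 5 endothelial markers together lay at 79.8 to 229 CPM against 15 to 58.4 CPM (3 of 5 higher, none lower), and the 5 astrocyte markers at 1083 to 1261 against 876 to 1068 CPM (2 higher, 1 lower), both without overlap between the groups. The 5 oligodendrocyte markers lay at 2776 to 3773 against 2355 to 2978 CPM (2 higher, 1 lower) and the 5 microglia markers at 271 to 306 against 304 to 324 CPM (1 higher, 1 lower), both with overlap. A list of 5 genes of suprachiasmatic nucleus neurons, Vip, Nms, Prok2, Lhx1 and Six6, lay at 66.4 to 111 against 49.2 to 64.1 CPM, without overlap. Of the 3 that could be tested 1 was higher. None of these 30 markers was at 0 in any sample. The 1122 genes of olfactory receptors, whose main site is the nasal epithelium, summed to 345 to 822 CPM in temperature-responsive and 45.0 to 250.1 CPM in non-responsive samples, also without overlap. The part of these transcripts in the clock gene values was not tested.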

How the data were processed

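Neuron contents were reverse transcribed and amplified (SMART-seq) and sequenced in 4 temperature-responsive and 3 non-responsive samples. The authors aligned reads to mm10 with STAR (2.6.0), dropped duplicate reads (RmDup), assigned reads to gene symbols with htseq-count (HTSeq 0.9.1) and deposited these raw counts. Removing duplicates without molecular identifiers also removes distinct molecules and can lower counts of abundant genes. The annotation and strand setting are not given in the sources used here.

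The tests used edgeR 4.0.16 (robust quasi-likelihood, TMM, two-sided) in R 4.3.3 for genes that reached 10 counts in 3 or more samples. The SE is the absolute log2 fold change over the root of F. Arm means used log2 CPM with a prior count of 2. DESeq2 1.42.0, the tool named in the study's methods, and limma 3.58.1 were alternatives, as were offsets for GC content and transcript length (mgcv 1.9.3). GENCODE M21 (mm10) gave coordinates, exons and GC content and held 94.5% of the symbols, and promoters from RefSeq on GRCm38.p6. The fit was tested on simulated data, where 196 of 14190 genes tested were changed by 1 on the log2 scale. It called 71.9% of them, and 5.37% of its calls were false. The simulation built in no group effect of GC content or gene detection, so it does not bear on those.

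Groups and replicate numbers come from the labels. Nothing used here says which mice gave which sample, so p-values measure the spread between these samples. Within a group, chi-square over its degrees of freedom was 1.94 to 5.36 for each pair of samples (12220 genes). That is more than counting error, so no pair was 1 library sequenced again. It cannot show whether samples shared a mouse, a slice or an RNA pool. The clock genes and lists were chosen with earlier results of these data known. All 10 clock genes were named, as were Per1 and each further clock gene past the threshold but 1, which is not reported here. Fbxw11, Bhlhe40, Csnk1d, Thra, Sphk2 and D930015M05Rik were named after values were seen. The ratios of Nr1d2 to Nr1d1 and of Hlf to Dbp were not among the planned measures.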

Additional observations from a re-analysis of the deposited data

Results flagged for a closer look

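Among 11 measures examined in the 4 temperature-responsive samples (the 10 clock genes and the difference between the clock arms), 1 had a sample that stood apart. By chance about 1 measure in 20 would. For Per3, replicate 2 had 73.8 CPM and the other samples 66.9 to 67.2 CPM, a gap of 0.960 of the whole range. That range is narrow, and without this sample the log2 fold change of Per3 was 0.12, with an adjusted p of 0.529 (edgeR).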

How the results depend on the processing

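The log2 fold changes of Nr1d1, Nr1d2 and Dbp kept their direction under all 21 alternatives and passed the threshold in 20. The exception was detected genes as a covariate, with -0.51 for Nr1d1, 0.73 for Nr1d2 and -0.40 for Dbp (adjusted p = 0.182, 0.133 and 0.641, edgeR), where 0 of the 10 and 0 of the 22 further clock genes and 1 gene in all passed. That number separates the groups, so the fit divides it from the condition only in part. Leaving out each sample gave -0.78 to -0.66 for Nr1d1, 0.58 to 0.80 for Nr1d2, -1.12 to -0.79 for Dbp, 0.17 to 0.35 for Rora, 3 to 4 of the 10 clock genes, 3 to 8 of the 22 and 2620 to 4583 genes in all (4327 with all samples; 2620 without non-responsive replicate 3). Rora passed with upper quartile scaling (0.34), at least 10 counts in every sample (0.30) and the replicate block (0.34). It also passed with replicates 1 to 3 without a block (0.35, chosen after seeing the data). Those are the samples left without temperature-responsive replicate 4, so that fit is not a separate one among the 21 alternatives. The cause was not tested. Of the 22 further clock genes 7 passed, 2 with the GC content offset, 2 with that offset plus a replicate block (2784 genes in all), and 4 with replicates 1 to 3 without a block. Clock, at 0.07, was -0.0214 without the count filter (all genes with at least 1 count), -0.18 with the GC content offset, -0.0089 with the transcript length offset and -0.14 with a replicate block plus the GC offset. Arntl, at -0.04, was 0.0295 with upper quartile scaling, 0.0462 without temperature-responsive replicate 3 and 0.0679 without non-responsive replicate 1, and leaving out samples gave -0.13 to 0.0679. Per2, Per3, Cry1 and Cry2 kept their sign and did not pass under any alternative run.

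The difference between clock arms (0.20) was -0.10 by role and 0.86 for Arntl against Dbp, 0.06 with the GC content offset, and 0.07 to 0.31 with a sample left out. Upper quartile scaling moved the share of higher genes among all called to 62.1%, from 50.3%, and the GC content offset to 37.4%. Nothing used here says that equal replicate numbers pair the samples. Correlations of same-numbered deviations were -0.128, -0.062 and 0.032, within the span of the other pairs (-0.17 to 0.222). With so few samples these values cannot show whether samples shared a mouse or a day. With the replicate block, over replicates 1 to 3, 4120 genes passed, against 3859 without it. Depth limits Dbp most, at 28 counts in its lowest sample.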
